A study of Homo sapiens with 11 samples.

Results

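The FLAG peak lists of a CUT&RUN study were set against its mouse IgG peak list, region by region. The members were the 3015 rows (peak regions) of the FLAG lists on chromosomes 1 to 22 and X, of 4616 rows in all 5 deposited lists on those chromosomes and 5435 on all sequences. The edit_myc_FLAG list gave 1942 of them and the myc_FLAG list 1073. Each row was placed in the overlapping part when it shared at least 1 bp with a row of the mouse IgG list, and otherwise in the non-overlapping part. The rule used position. Overlapping rows can lie only where the 230 mouse IgG rows lie, of which 3 are at a gene end, and a wider row is more likely to share 1 bp. The location and width of the parts are therefore given as descriptions.

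All samples were HEK293T, a line from human embryonic kidney that also expresses SV40 large T antigen. Cells labelled edit_myc_FLAG (3 libraries) and myc_FLAG (3 libraries) were profiled with a mouse anti-FLAG antibody, and 1 library was made with mouse IgG, which matches that antibody in species. A rabbit IgG list (1 library) and a list of endogenous myc (endog_myc, 3 libraries, rabbit antibody) are used below only to see where the same regions recur. Not given in the sources used here are the meaning of "edit", the way the tagged myc was made or expressed, whether the cells are a pool or a clone, and the way the 3 libraries of a group were merged into its list. Which control library, if any, entered each peak call is not given either. Read depth is unknown from the lists, and no list holds separate replicates. Every interval below therefore covers counting error over rows only, neighbouring rows are not independent, and no p-value is given.

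MYC pairs with MAX to bind DNA, best at the E-box CACGTG, and is known for occupying promoters of genes for growth, ribosome synthesis and metabolism. In CUT&RUN an antibody tethers a nuclease that cuts the DNA around the bound protein, and the short fragments that leave the nucleus are sequenced. IgG of the same species binds no chosen target, so its fragments show where the method gives signal without one. Repeated DNA such as the satellites at centromeres is a well known place for such signal, and published exclusion lists collect regions of this kind. No exclusion list and no repeat annotation were used here.

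Promoter sequences are shown as examples of the regions, and because they were chosen they support no comparison. The first 4 come from protein-coding genes whose promoter held CACGTG inside a row of both FLAG lists, with no mouse IgG row there, and were taken in order of the lower of their FLAG folds. Each is the 250 bases before the gene's start, 5′ to 3′ on the gene's strand, from the RefSeq promoter table of GRCh38.p14, and capitals mark CACGTG.
TEF chr22:41381692-41381941 (+): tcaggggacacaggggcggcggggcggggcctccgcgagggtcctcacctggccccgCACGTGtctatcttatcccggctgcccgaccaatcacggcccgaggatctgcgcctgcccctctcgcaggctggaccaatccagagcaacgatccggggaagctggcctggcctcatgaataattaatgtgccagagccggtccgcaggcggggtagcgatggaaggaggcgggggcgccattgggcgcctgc
KDM4B chr19:4968863-4969112 (+): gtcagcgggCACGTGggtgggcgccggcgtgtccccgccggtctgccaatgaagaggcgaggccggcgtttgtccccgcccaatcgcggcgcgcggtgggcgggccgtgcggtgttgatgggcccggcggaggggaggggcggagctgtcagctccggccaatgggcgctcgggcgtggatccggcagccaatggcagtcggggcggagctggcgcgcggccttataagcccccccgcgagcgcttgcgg
ARRDC4 chr15:97960453-97960702 (+): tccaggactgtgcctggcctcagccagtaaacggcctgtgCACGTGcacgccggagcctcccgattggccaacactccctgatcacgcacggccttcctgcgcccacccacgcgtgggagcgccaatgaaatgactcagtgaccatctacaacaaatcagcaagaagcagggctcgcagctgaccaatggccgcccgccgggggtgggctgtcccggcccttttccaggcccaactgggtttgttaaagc
NRL chr14:24114950-24115199 (-): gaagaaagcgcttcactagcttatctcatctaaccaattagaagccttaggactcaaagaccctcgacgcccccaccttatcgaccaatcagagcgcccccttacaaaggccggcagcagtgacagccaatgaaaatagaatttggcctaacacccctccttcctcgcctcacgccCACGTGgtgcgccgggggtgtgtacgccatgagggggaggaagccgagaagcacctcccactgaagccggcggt
TEF and NRL encode leucine zipper transcription factors, KDM4B a histone lysine demethylase and ARRDC4 an arrestin-domain protein. The authors' fold of the row was 6.65 in edit_myc_FLAG and 6.13 in myc_FLAG at TEF, 6.60 and 5.98 at KDM4B, 5.89 and 6.53 at ARRDC4, and 5.61 and 5.23 at NRL. None of the 4 edit_myc_FLAG rows overlapped a rabbit IgG row, and those at TEF and KDM4B overlapped an endog_myc row.

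The next promoters belong to genes where a mouse IgG row covered bases before the start, with the 171 and 184 covered bases in capitals, and they were chosen after their values were seen. FGGY, a carbohydrate kinase gene, had a mouse IgG row and no FLAG row, and FAM27E4, a non-coding gene, had a row in both.
FGGY chr1:59296563-59296812 (+): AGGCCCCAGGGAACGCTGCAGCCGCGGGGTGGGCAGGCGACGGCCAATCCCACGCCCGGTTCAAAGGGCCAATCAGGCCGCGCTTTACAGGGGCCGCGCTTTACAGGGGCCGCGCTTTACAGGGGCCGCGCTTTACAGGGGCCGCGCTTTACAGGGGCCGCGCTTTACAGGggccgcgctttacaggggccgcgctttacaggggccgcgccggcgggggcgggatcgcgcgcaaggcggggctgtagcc
FAM27E4 chr9:61856455-61856704 (+): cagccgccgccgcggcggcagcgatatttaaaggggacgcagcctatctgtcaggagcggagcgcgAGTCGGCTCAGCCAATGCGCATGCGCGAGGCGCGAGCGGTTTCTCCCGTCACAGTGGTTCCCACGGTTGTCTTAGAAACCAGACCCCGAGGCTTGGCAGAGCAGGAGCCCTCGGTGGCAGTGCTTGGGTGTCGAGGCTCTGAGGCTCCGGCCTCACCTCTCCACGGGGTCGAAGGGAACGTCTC
In the FGGY promoter a unit of 16 bases, CCGCGCTTTACAGGGG, occurred 8 times. In the other 5 printed promoters no run of 16 bases occurred more than 1 time. At FAM27E4 the fold was 7.999 in mouse IgG, 8.41 in edit_myc_FLAG and 9.64 in myc_FLAG, and the region was also in the rabbit IgG and endog_myc lists.

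Few FLAG rows overlapped mouse IgG, but most mouse IgG rows overlapped FLAG. In edit_myc_FLAG 193 of 1942 rows overlapped, which is 9.94% (95% Wilson interval 8.69 to 11.3%), and 1749 did not. In myc_FLAG 201 of 1073 rows overlapped, 18.7% (16.5 to 21.2%), and 872 did not. The share was lower in edit_myc_FLAG by 8.79 percentage points (edit_myc_FLAG minus myc_FLAG -8.79, Newcombe interval -11.5 to -6.16), while the numbers of overlapping rows were nearly the same. With the edit_myc_FLAG list shortened to its 1073 rows of highest fold, 13.8% of them overlapped and the difference was -4.94 points (-8.06 to -1.82).

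The mouse IgG list held 230 rows, and 187 of them (81.3%, 75.8 to 85.8%) were in both FLAG lists. A further 7 were in edit_myc_FLAG only and 18 in myc_FLAG only, which brings the totals to 194 (84.3%) and 205 (89.1%). The 18 rows in neither FLAG list were narrow and of low significance, with a median width of 266.5 bp and a median −log10 q of 4.19, against 429 bp and 15.8 for the 187 rows in both. Their median fold was close to that of the 187, at 5.86 against 5.91, and none of them was in the rabbit IgG list, against 132 of the 187. The highest of them by fold, chr17:23583268-23583529, reached 9.48 and lay in gene-poor DNA.

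Location differed between the parts. Rows at a gene end are those with a summit no more than 1000 bp away from where a protein-coding gene starts or stops, and over each whole list this held for 35.8% of edit_myc_FLAG rows, 23.8% of myc_FLAG rows and 1.30% of mouse IgG rows. None of the 193 overlapping edit_myc_FLAG rows was at a gene end (a count of 0 allows up to 1.55%), against 695 of the 1749 others (39.7%, 37.5 to 42.0%). None of the 201 overlapping myc_FLAG rows was either (up to 1.49%), against 255 of the 872 others (29.2%, 26.3 to 32.4%). With the rabbit IgG list added to mouse IgG the overlapping share at gene ends was 4.12% and 3.31% in edit_myc_FLAG and myc_FLAG, and with a window of 5000 bp it was 3.11% and 2.99%. Where the RefSeq promoter table gives a start for the nearest gene, the summit was within 1000 bp of a start in 577 of 603 such edit_myc_FLAG rows and 222 of 228 myc_FLAG rows, so "gene end" here nearly always means the promoter side. No overlapping row of either list touched a promoter window (250 bases before to 50 after a start) of a protein-coding gene, while 32.0% and 25.7% of the non-overlapping rows did.

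Most overlapping rows lay instead outside genes. Gene-poor rows, which have no annotated gene within 100 kb, accounted for 40.4% of the overlapping and 14.0% of the non-overlapping rows of edit_myc_FLAG, a difference of 26.5 points (19.6 to 33.7). In myc_FLAG they made up 43.3% and 35.6%, a difference of 7.73 points (0.329 to 15.3), and many non-overlapping myc_FLAG rows were gene-poor too. Among myc_FLAG rows with a −log10 q of at least 5 it had the opposite sign, with 42.6% and 43.9%. Rows outside genes but within 100 kb of a gene made up 43.0% against 19.8% in edit_myc_FLAG and 39.8% against 18.1% in myc_FLAG. Inside genes the parts differed in edit_myc_FLAG (16.6% against 26.5%, difference -9.89 points, -14.9 to -3.67) and not beyond counting error in myc_FLAG (16.9% against 17.1%, -5.43 to 6.08 points).

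**Figure D1:**
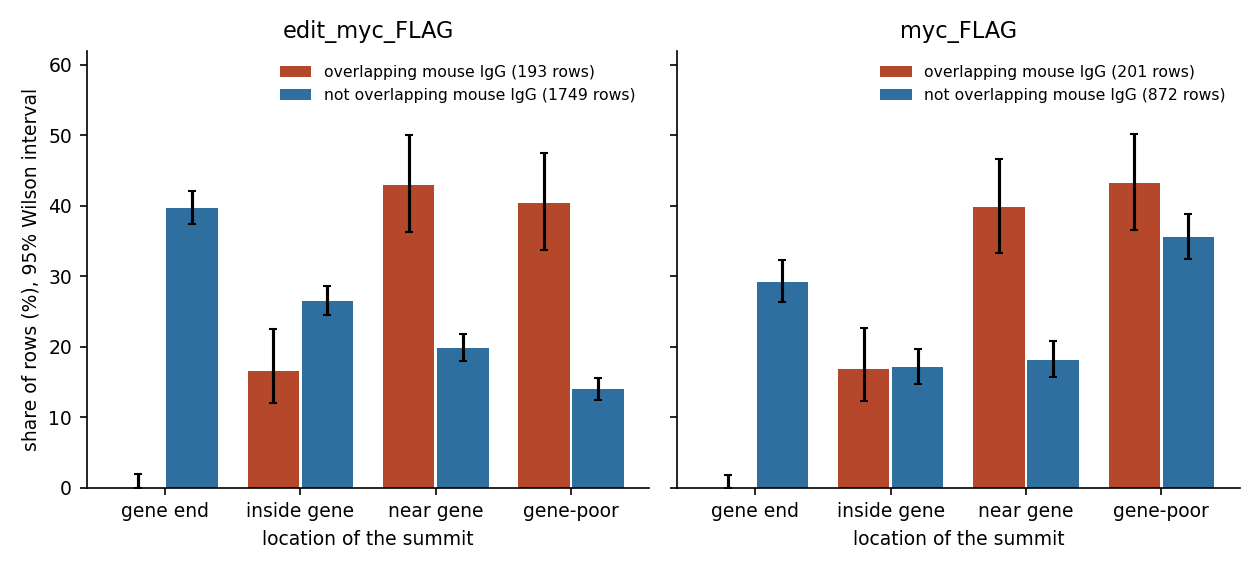
Share of rows (%, bars from 0, with 95% Wilson intervals) whose summit lies at a gene end, inside a gene, near a gene (outside genes, within 100 kb) or in gene-poor DNA, for rows that overlap mouse IgG and rows that do not, in edit_myc_FLAG and myc_FLAG. The bar for overlapping rows at gene ends is at 0 in both panels, and the gene-poor bars of myc_FLAG are close together.

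The overlapping rows were wide and highly significant. Their median width was 547 bp (95% interval of the median 496 to 605) against 234 bp (228 to 240) for the other rows of edit_myc_FLAG, and 566 bp (511 to 628) against 260 bp (251 to 267) in myc_FLAG. The median −log10 q, the authors' caller's measure of significance, was 46.7 (39.7 to 57.5) against 4.15 (3.999 to 4.32) in edit_myc_FLAG. In myc_FLAG it was 49.4 (34.5 to 59.1) against 6.26 (5.78 to 6.66). The fold, the authors' enrichment at the summit, differed far less: 7.36 (6.73 to 7.99) against 5.25 (5.16 to 5.32), and 6.91 (6.28 to 7.72) against 5.36 (5.23 to 5.49). The middle 50% of the folds ran from 5.29 to 10.6 in overlapping and from 4.61 to 6.24 in other edit_myc_FLAG rows, so the parts shared much of their range of fold.

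The share of rows that overlapped mouse IgG rose steeply with significance and width, and not steadily with fold. Of the 50 edit_myc_FLAG rows with a −log10 q of 100 or more, 48 overlapped mouse IgG (96.0%), and of the 514 rows below 3 only 4 did (0.778%). In myc_FLAG the counts were 60 of 64 (93.8%) and 2 of 153 (1.31%). By width it went from 1.38% of edit_myc_FLAG rows under 200 bp to 82.2% of the 45 rows of 1000 bp or more, and from 2.61% to 88.9% in myc_FLAG. By fold it was 9.04% below a fold of 4, 4.64% from 4 to 5, 4.23% from 5 to 6 and 69.6% at 20 or more in edit_myc_FLAG. The same shape was seen in myc_FLAG, with 15.6%, 11.3%, 11.2% and 68.2%.

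**Figure D2:**
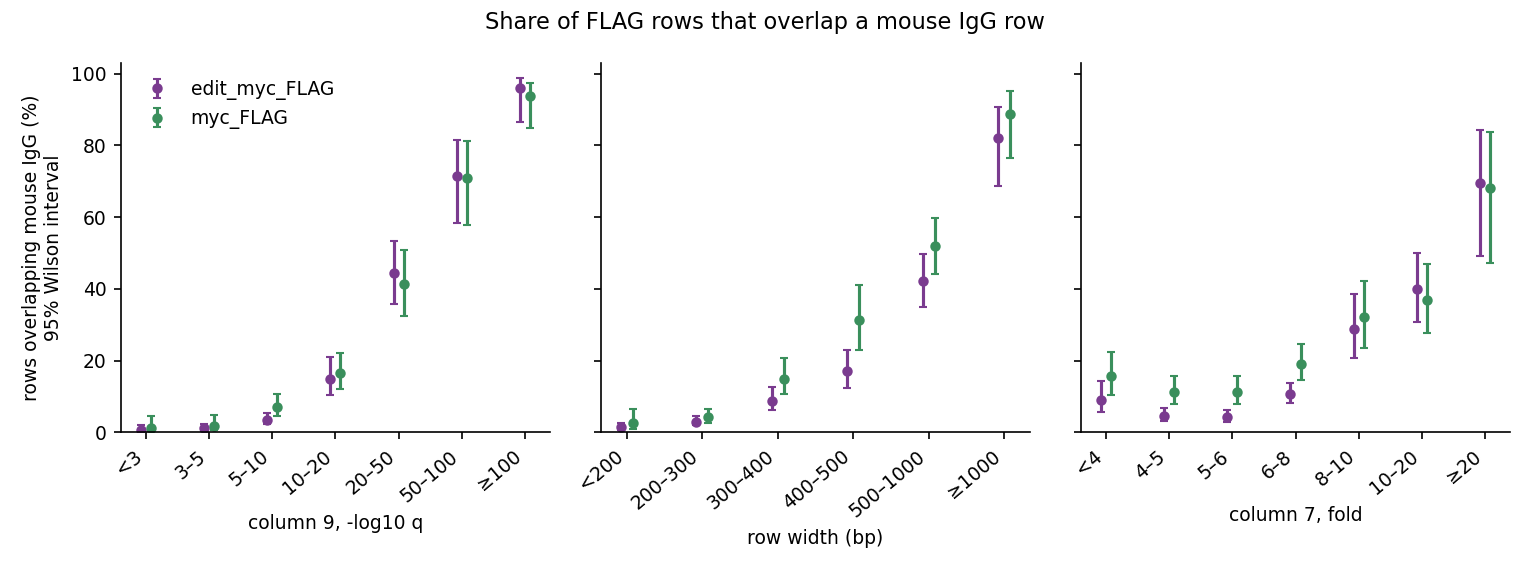
Share of FLAG rows that overlap a mouse IgG row (%, points with 95% Wilson intervals) by −log10 q, by row width in bp and by fold, for edit_myc_FLAG and myc_FLAG. The edit_myc_FLAG points climb from 0.778% to 96.0% along the −log10 q, whereas the lowest fold class lies above the next 2 in both lists.

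Ranking by significance put the regions shared with mouse IgG first. The 50 rows of highest −log10 q included 48 that overlapped mouse IgG in each FLAG list, and the 200 highest included 132 in edit_myc_FLAG and 135 in myc_FLAG. Of those 200 rows, 0 in edit_myc_FLAG and 1 in myc_FLAG lay at a gene end. Ranking by fold, the 50 highest included 28 and 30 overlapping rows and no row at a gene end. Rows at gene ends were of low significance, with a median −log10 q of 3.96 (3.78 to 4.15) in edit_myc_FLAG and 4.72 (4.30 to 5.13) in myc_FLAG, and the highest were 22.97 and 23.8. This was not particular to gene ends: non-overlapping rows inside genes had medians of 3.48 (3.23 to 3.82) and 4.30 (3.53 to 4.90). The median fold of rows at gene ends, 5.45 (5.36 to 5.57) and 5.66 (5.48 to 5.81), was close to that of the gene-poor non-overlapping rows, 5.47 (5.20 to 5.79) and 5.38 (5.22 to 5.73).

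**Figure D3:**
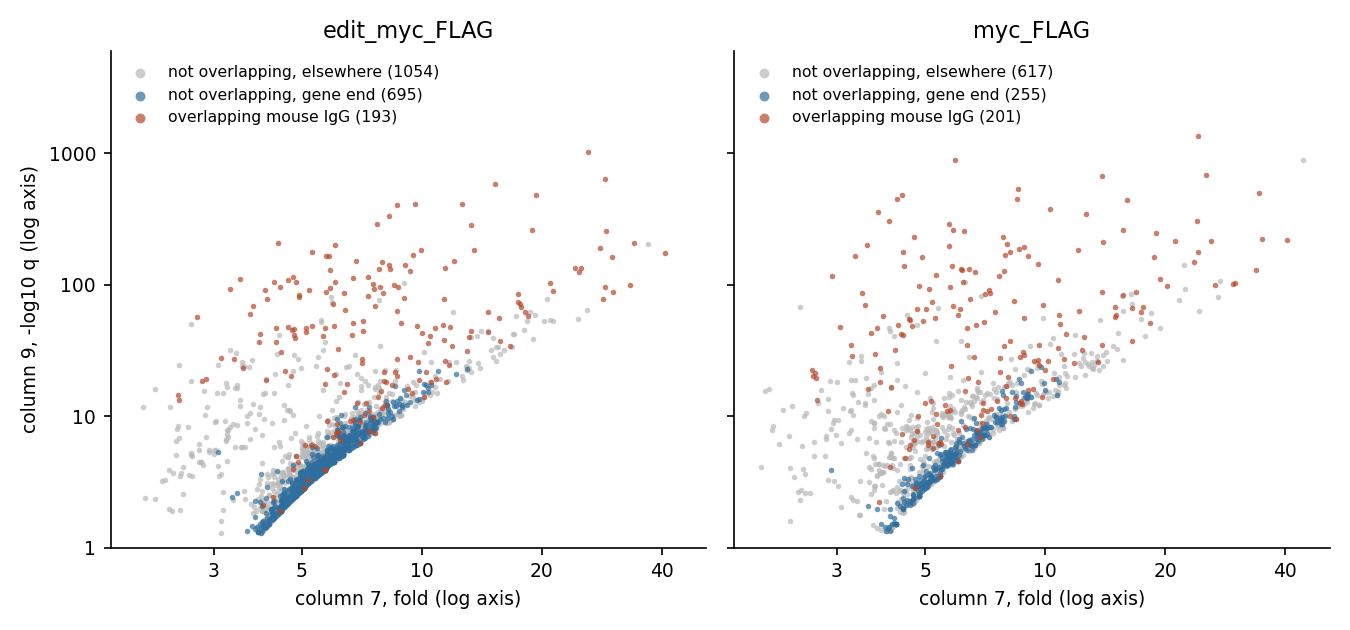
Fold against −log10 q of every FLAG row (both axes log) in edit_myc_FLAG and myc_FLAG, coloured by overlap with mouse IgG and, for rows that do not overlap, by whether the summit is at a gene end. Rows at gene ends stop at a −log10 q of 22.97 and 23.8, and of the rows at 100 or more 48 of 50 and 60 of 64 overlap.

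The overlapping rows of highest fold lay on chromosomes 17, 4 and 6, outside genes. The row chr17:25920050-25920371 had the highest fold, 40.8 in edit_myc_FLAG and 40.4 in myc_FLAG, with 19.97 in mouse IgG and 22.6 in rabbit IgG, and lay 1061485 bp from the nearest annotated gene. At chr17:22521209-22521530, which is 696 bp from the pseudogene MTCYBP13, the folds were 34.0, 34.4, 23.2 and 31.5 in the same order. Folds come from separate peak calls and are each list's own value, so they show that the same region ranks high in each list, not how much more FLAG signal it had.

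At chr17:25383642-25383935 and chr17:25569136-25569375 the FLAG folds were 33.2 and 33.8, and 30.2 and 29.9, the mouse IgG folds were 15.4 and 11.9, and no rabbit IgG row overlapped. Further rows among the highest were chr6:58784722-58785108 (30.0, 26.1 and 18.4 in edit_myc_FLAG, myc_FLAG and mouse IgG), chr17:26603704-26604425 (28.9, 24.0 and 17.6), chr4:50555879-50556330 (28.8, 35.0 and 20.4) and chr17:25074332-25074660 (28.5, 29.6 and 14.0). Coordinates are those of the list in which the row ranked among the 6 highest. All 8 regions were in both FLAG lists, in mouse IgG and in endog_myc.

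The rows of highest significance and width, given next, were chosen after their values were seen. By significance the first row of each list was chr3:93470362-93470799, with the same start and end in edit_myc_FLAG and myc_FLAG. Its −log10 q was 1016 and 1339, and its fold 26.0, 24.1, 22.97 and 22.6 in edit_myc_FLAG, myc_FLAG, mouse IgG and rabbit IgG. The widest rows were chr16:46398370-46401610 in edit_myc_FLAG, at 3241 bp and a fold of 5.31, and chr5:49657000-49660363 in myc_FLAG, at 3364 bp and a fold of 8.48. Width and fold went together weakly at most: across the overlapping rows the Spearman correlation of fold and width was 0.115 in edit_myc_FLAG (193 rows) and 0.0125 in myc_FLAG (201 rows).

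The mouse IgG rows were gathered in clusters. Chained together where neighbours lay within 1 Mb, they formed 72 clusters, and the 12 clusters with at least 5 rows held 158 of the 230 rows (68.7%) within 15989058 bp. These 12 clusters held 137 of the 193 overlapping edit_myc_FLAG rows (71.0%) and 144 of the 201 overlapping myc_FLAG rows (71.6%), and no FLAG row at a gene end. They also held 245 edit_myc_FLAG and 260 myc_FLAG rows that overlapped no mouse IgG row. The largest, chr1:121775103-125183004, had 30 mouse IgG rows, and only 20 of its 135 edit_myc_FLAG rows and 26 of its 154 myc_FLAG rows overlapped one of them.

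A larger share overlapped in each of the next 4 clusters by number of mouse IgG rows. In chr4:49091976-51712589, with 29 mouse IgG rows, 25 of 52 edit_myc_FLAG and 28 of 63 myc_FLAG rows overlapped, and in chr1:143184662-143267329, with 23 mouse IgG rows, 24 of 40 and 23 of 34 did. In chr16:33337469-34726037 it was 14 of 21 and 14 of 19. The cluster chr17:21970280-26885851 had the highest median mouse IgG fold of the 12, 9.48, and 16 of its 39 edit_myc_FLAG and 15 of its 35 myc_FLAG rows overlapped. Of all 230 mouse IgG rows 49.6% lay in the longest gene-free stretch between the first and last gene of their chromosome, as did 49.7% of the overlapping and 14.0% of the other edit_myc_FLAG rows, and 51.2% and 33.5% in myc_FLAG.

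Some non-overlapping rows stood close to a mouse IgG row without touching it, and this depended on location. Of all non-overlapping rows, 16.1% in edit_myc_FLAG and 29.6% in myc_FLAG lay within 100 kb of a mouse IgG row. Within 1000 bp the shares were 2.80% and 4.24%. Of the gene-poor non-overlapping rows, 156 of 244 (63.9%, 57.7 to 69.7%) in edit_myc_FLAG and 181 of 310 (58.4%, 52.8 to 63.7%) in myc_FLAG lay within 100 kb of a mouse IgG row. Of the rows at gene ends 6 of 695 (0.863%) and 4 of 255 (1.57%) did. The median distance was 37019 bp and 67638 bp for gene-poor rows, against 13242002 bp and 13079308 bp for rows at gene ends. The non-overlapping part thus held many gene-poor rows in the neighbourhood of mouse IgG rows.

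**Figure D4:**
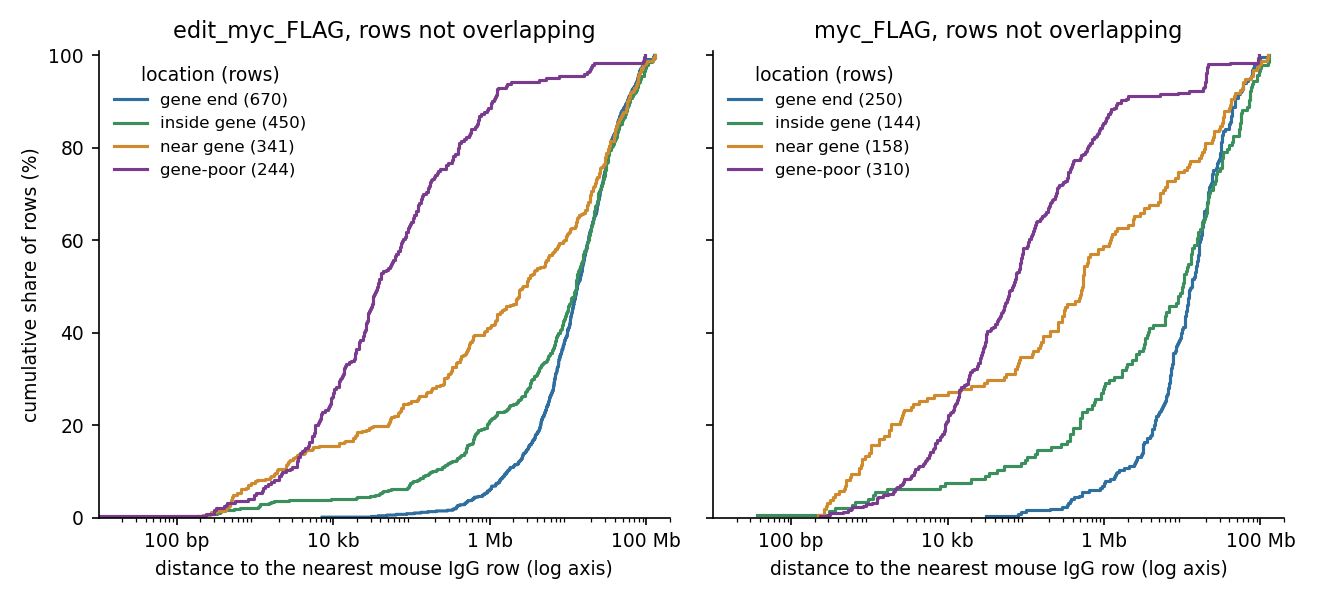
Cumulative share of non-overlapping FLAG rows (%) by distance to the nearest mouse IgG row (log axis), by location of the summit, for rows on chromosomes with a mouse IgG row. At 100 kb gene-poor rows reach 63.9% in edit_myc_FLAG and 58.4% in myc_FLAG, far above rows at gene ends.

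Where a FLAG row overlapped mouse IgG, the summits of both rows mostly lay close together. The rows were matched by overlap, so short distances and shared bases follow in part from that rule. The summits of matched rows were a median of 17 bp apart in edit_myc_FLAG and 15 bp in myc_FLAG, and within 100 bp in 140 of 193 (72.5%) and 152 of 201 (75.6%). At the median, the FLAG row shared 83.3% and 83.1% of its bases with mouse IgG, and the mouse IgG row shared all of its own. The FLAG row was the wider of the matched rows in 147 of 193 and 177 of 201 cases. The order of the regions by fold was alike in the FLAG and mouse IgG lists, with a Spearman correlation of 0.823 over 193 matched rows in edit_myc_FLAG and 0.885 over 201 in myc_FLAG. Neighbouring rows share clusters, so these correlations only describe the lists.

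**Figure D5:**
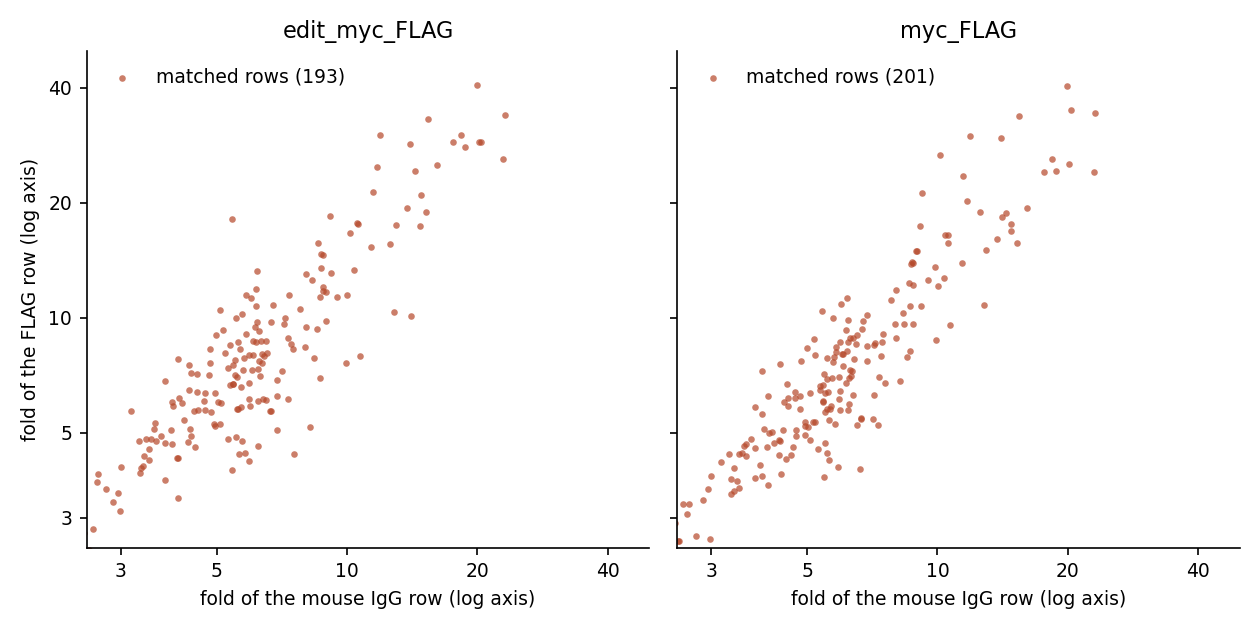
Fold of each overlapping FLAG row against the fold of the mouse IgG row it overlaps most (both axes log), for edit_myc_FLAG (193 rows) and myc_FLAG (201 rows). The points rise together up to folds of 23.2 in mouse IgG and 40.8 in edit_myc_FLAG. The lowest folds, such as 2.22 in mouse IgG, fall outside the axes and are not drawn.

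Few overlapping rows touched protein-coding genes, 15 of 193 (7.77%) in edit_myc_FLAG and 16 of 201 (7.96%) in myc_FLAG, against 46.0% and 29.6% of the other rows. They lay inside the gene, away from its ends. The genes below were chosen after their values were seen, from among those of highest fold. In SERINC2, for a membrane protein tied to serine incorporation, the row chr1:31431781-31432181 had a fold of 18.1 in edit_myc_FLAG, 10.4 in myc_FLAG, 5.42 in mouse IgG and 6.30 in rabbit IgG. In ARHGEF18, for a RhoA exchange factor, the folds were 13.01, 11.8, 8.03 and 6.78, and in TMEM242, for a mitochondrial membrane protein, 11.3, 10.9, 5.99 and 6.01.

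DUX4, the transcription factor gene of the D4Z4 repeats at the end of chromosome 4, had folds of 13.5, 14.0, 8.72 and 12.4 in edit_myc_FLAG, myc_FLAG, mouse IgG and rabbit IgG. It has many near-identical copies, so the copy a read came from is uncertain. MUC3A (8.11, 7.97, 5.21 and 7.23), PTPRN2 (8.65, 6.77, 6.16 and 6.44) and ACTN2 (7.55, 7.56, 4.32 and 5.50) followed with lower folds.

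On chromosome 1, a group of nuclear copies of mitochondrial genes had low folds and high significance. The rows at nuclear copies named here were chosen after their values were seen. The pseudogenes MTND2P28, MTCO1P12 and MTATP6P1 lie together on chromosome 1, where each FLAG list had 4 rows and mouse IgG had 4 rows within chr1:629320-634355. The edit_myc_FLAG folds were only 3.76 to 7.71, but the −log10 q was 68.6 to 288. In myc_FLAG the folds were 3.801 to 5.95 and the −log10 q was 355 to 890. At MTND2P28 the lists' own folds were 5.62 in mouse IgG, 4.40 in edit_myc_FLAG and 4.24 in myc_FLAG. Not all nuclear copies shared this pattern. The overlapping myc_FLAG row at MTRNR2L10, chrX:55182146-55182588, had a fold of 4.70 and a −log10 q of only 2.83, and the non-overlapping myc_FLAG row at MTRNR2L12 had a fold of 22.2. Each of the 5 lists also had 7 rows on the mitochondrial genome itself, and the part of mitochondrial reads in these rows was not tested.

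The overlapping rows recurred in the other lists. In edit_myc_FLAG 96.9% of them were also in myc_FLAG, 97.4% in endog_myc and 69.9% in rabbit IgG, against 28.0%, 29.2% and 4.23% of the non-overlapping rows. In myc_FLAG 91.0% were also in edit_myc_FLAG, 96.5% in endog_myc and 68.2% in rabbit IgG, against 55.6%, 53.0% and 8.14%. Of the non-overlapping rows 1096 of 1749 (62.7%) in edit_myc_FLAG and 271 of 872 (31.1%) in myc_FLAG were in none of the other 4 lists. A row that overlapped mouse IgG was thus more often shared with the other FLAG list and with endog_myc than one that did not. The lists have unequal lengths, which bears on each of these shares. Within a list the overlapping rows were also wider and of higher −log10 q, and a wider row is more likely to share 1 bp with any list. The part of width and significance in these differences was not tested.

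Rows at gene ends were the main class of non-overlapping rows in edit_myc_FLAG. Of these rows 11 of 695 were in rabbit IgG, and 9 of 255 in myc_FLAG. The whole rabbit IgG list had only 13 of 228 rows at a gene end (5.70%), so these counts could hardly be larger and do not show that gene ends lack IgG signal. In edit_myc_FLAG the highest fold was at LOC124903130 (13, and 10.7 in myc_FLAG), an uncharacterised protein-coding model at chr13:21377284-21377665. The row chr16:46689270-46689569 lay between ORC6, a subunit of the origin recognition complex, and VPS35, of the retromer complex for endosomal sorting. Its fold was 12.2 in edit_myc_FLAG, 10.6 in myc_FLAG, 13.7 in endog_myc and 5.86 in rabbit IgG. CAMTA1, for a calmodulin-binding transcription activator, had 10.99 and 8.70 at chr1:6784740-6785441 in the FLAG lists and no row in either IgG list.

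LIAT1 (10.5 and 7.49 in edit_myc_FLAG and myc_FLAG), UBP1, for a CP2-family transcription factor (10.3 and 5.12), HNRNPA0, for an RNA-binding protein (10.24 and 5.63), and TIAM1, for a RAC exchange factor (10.1 and 6.69), were in both FLAG lists and neither IgG list. AGPAT5, for a phospholipid acyltransferase (10.03 and 9.02), and FBXO24, for an F-box protein (9.82 and 8.81), had a rabbit IgG row as well, with folds of 5.77 and 5.16. IFT27, for intraflagellar transport, had 9.69 and 5.60. AKAP8L, for a nuclear anchoring protein (10.3), and ABHD17B, for a depalmitoylase (9.85), had a row in edit_myc_FLAG only. All of these folds are those of the row, and a row near the ends of 2 genes was named by the nearer.

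In myc_FLAG the first by fold was SWSAP1, for a recombination factor, with 10.8 at chr19:11374618-11375066, and 8.16 in edit_myc_FLAG. LOC124903130, VPS35 and AGPAT5, given above, followed among the 12 highest. TOM1, for an endosomal sorting protein, had 9.98 and no edit_myc_FLAG row. DRC3, of the dynein regulatory complex of cilia (9.93 and 5.48 in edit_myc_FLAG), SNRPA, of the U1 splicing particle (9.78 and 8.55), PROSER3 (9.20 and 6.81), HNRNPC, for a pre-mRNA binding protein (9.19 and 7.20), P4HB, for a protein disulfide isomerase (9.04 and 8.66), and BCL2L1, for the survival factor BCL-xL (9.02 and 4.93), were in both FLAG lists and neither IgG list. KHSRP, for an RNA decay factor, had 8.98 and 6.13 and a rabbit IgG row of 5.10.

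The mouse IgG list had rows at gene ends at 3 places only. They were CNIH4, for a protein of the early secretory pathway (fold 8.19), the histone gene H2BC4 (7.69) and FGGY (7.26), with −log10 q of 8.59, 7.79 and 6.31. None of these rows overlapped a row of any other list. At the level of genes, 852 of 19821 protein-coding genes had an edit_myc_FLAG row at an end (4.30%) and 330 a myc_FLAG row (1.66%). A mouse IgG row was at an end of 4 genes and a rabbit IgG row at an end of 17. No gene had both a FLAG and a mouse IgG row at an end. With only 4 mouse IgG genes, a count of 0 lies near the shares of all protein-coding genes and shows no separation.

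Some genes of groups linked to MYC had FLAG rows at their ends. The gene lists were chosen with earlier results of these data known, so the counts are descriptions only. No FLAG row at the end of any gene overlapped mouse IgG, so the same holds for each group and says nothing particular to it. The share of all protein-coding genes with a row, 4.30% in edit_myc_FLAG and 1.66% in myc_FLAG, is the background for these counts. Of 36 ribosome biogenesis genes 7 had an edit_myc_FLAG row (19.4%) and 0 a myc_FLAG row. The 7 were FBL, NOP56, NOP2, WDR74, RRP1B, UTP18 and LTV1, with folds from 4.71 at LTV1, a small-subunit assembly factor, to 6.31 at UTP18, of the processome that makes the small subunit. The rows at FBL, NOP2, WDR74, HNRNPA1 and GART lay nearer to the end of a neighbouring gene (DYRK1B, IFFO1, STX5, CBX5 and SON). Of 34 splicing factor genes 6 (17.6%) and 4 (11.8%) had a row, among them HNRNPA1 (5.59 and 4.81), SNRPD2 (5.29 and 4.65) and SNRNP70 (6.24, edit_myc_FLAG only).

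Of 25 translation factor genes 4 had an edit_myc_FLAG row (16.0%) and 1 a myc_FLAG row. The gene in both was EIF5A, whose product carries hypusine, with folds of 8.92 and 5.92 and a rabbit IgG row of 6.11. Of 22 chaperone genes 3 (13.6%) had a row in each list: HSPA1B (4.85 and 7.78) and HSPA5, the chaperone BiP of the endoplasmic reticulum (7.17 and 5.40), in both, HSPA8 (6.15) in edit_myc_FLAG only and HSP90B1 (7.01) in myc_FLAG only. Of 25 nucleotide synthesis genes 3 had a row in each list, with CTPS1, for CTP synthase (5.91 and 6.48), and MTHFD1, of folate metabolism (7.20 and 5.19), in both. RRM2, of ribonucleotide reductase, had 5.36 in edit_myc_FLAG, and GART, of purine synthesis, had 6.54 in myc_FLAG. HSPA1B has a near-identical neighbour, HSPA1A, so the copy is uncertain.

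Of 13 genes of the MAX network, the partners and competitors of MYC, MXD1 (5.97) and MXD3 (4.50) had an edit_myc_FLAG row and 0 a myc_FLAG row. None of 24 neuronal genes and 20 liver genes, which served as controls, had a row at an end in either FLAG list. In lists this short, 0 lies near the share of all protein-coding genes, 4.298% in edit_myc_FLAG and 1.665% in myc_FLAG. These counts of 0 therefore show no contrast with the groups linked to MYC, and the same limit applies to the counts of 0 in those groups. The mouse IgG list had a row at an end of 0.0202% of all protein-coding genes and of no member of the 8 gene lists.

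The promoter windows under non-overlapping rows had more CG pairs than windows as a whole, as did those under IgG rows. The touched windows belong to genes of any type, not only to protein-coding genes. Those touched by edit_myc_FLAG rows had a median GC content of 67.7% and 28 CG pairs, and those touched by myc_FLAG rows 65.7% and 26. The medians were 62.3% and 21 over the 22132 windows of protein-coding genes, and 58.7% and 14 over all 34961 windows. The 6 windows touched by mouse IgG rows had 71.2% and 34.5, and the 1 window under overlapping rows had 64.7% and 29. CACGTG, which reads the same on both strands, was in 93 of 877 edit_myc_FLAG windows (10.6%, 8.74 to 12.8%) and 38 of 365 myc_FLAG windows (10.4%, 7.68 to 14.0%), against 8.34% of protein-coding windows and 7.27% of all 34961. CACGCG, searched on both strands and sharing its first 4 bases with CACGTG, was in 20.8% and 22.5%, against 14.2% and 11.4%. In the 403 windows touched by endog_myc rows CACGTG was in 7.69% (5.47 to 10.7%). For CACGTG the interval of edit_myc_FLAG lies just above the share of protein-coding windows and that of myc_FLAG includes it. The 877 edit_myc_FLAG windows belong to 775 genes, and windows can share bases and rows. These intervals are therefore too narrow, and a margin this small is not read as a difference. GC content was higher in the touched windows too, and its part in the motif counts was not tested.

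Both FLAG lists touched a promoter window of 186 of the 15812 protein-coding genes with such a window. Of the 186, 121 had an endog_myc row there and 9 a rabbit IgG row. Recurrence in endog_myc was not particular to promoters. In edit_myc_FLAG it held for 26.5% of gene-end and 50.8% of gene-poor non-overlapping rows, and in myc_FLAG for 53.7% and 53.2%. CACGTG was in the window of 20 of the 186 and inside a row of both lists, before the start, at 8, the printed TEF, KDM4B, ARRDC4 and NRL among them. The overlapping rows touched 1 window of any gene in each list, that of FAM27E4.

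Some of the highest folds stood outside the mouse IgG rows and away from gene ends, and these were chosen after their values were seen. The row chr13:109424129-109424336 had a fold of 36.9 in edit_myc_FLAG and 44.2 in myc_FLAG, with no mouse IgG row but a rabbit IgG fold of 32.2. At chr17:24421363-24421598 the FLAG folds were 25.9 and 27.2 and the rabbit IgG fold 15.8, again with no mouse IgG row. Inside COL23A1, a collagen gene, the row chr5:178585535-178585741 had 20.6, 21.7 and 22.2 in edit_myc_FLAG, myc_FLAG and endog_myc and no row in either IgG list. In myc_FLAG alone, a row inside RGPD2, a member of the RANBP2-like duplicated genes, had 27.4, and it also touched the mitochondrial pseudogenes MTATP8P2 and MTATP6P28. Absence from the mouse IgG list, which comes from 1 library, did not mean absence from the rabbit IgG list: 74 of the 1749 non-overlapping edit_myc_FLAG rows and 71 of the 872 myc_FLAG rows were there.

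The non-overlapping parts of the FLAG lists differed in location. The share at gene ends was higher in edit_myc_FLAG by 10.5 points (6.65 to 14.2), the share inside genes by 9.39 points (6.06 to 12.6), and the gene-poor share was lower (-21.6 points, -25.2 to -18.1). At equal length of the lists the share at gene ends was 45.6% in edit_myc_FLAG and 29.2% in myc_FLAG, and the gene-poor share was 15.2% and 35.6%, so both directions held. Read depth is unknown and cannot be told apart from the groups here. The overlapping parts are tied to the same mouse IgG rows, 187 of 230 of which are in both lists, so they were bound to be alike: 40.4% and 43.3% were gene-poor, and 69.9% and 68.2% were in rabbit IgG.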

How the data were processed

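CUT&RUN peak lists of HEK293T were used as deposited, in narrowPeak form, 5 lists for the 11 samples. Bowtie2 2.4.5, SAMtools 1.15, MACS3 3.0.0b1, HOMER 4.10 and the build hg38 are named in the submitters' processing notes, with no role given. Each deposited list holds, as the authors' caller wrote them, a score (column 5), a fold ratio at the summit (column 7), the −log10 of the q-value (column 9) and a summit offset. The authors' lists give no read counts, so depth per sample and its effect on list length are unknown. The members and gene lists were chosen with earlier results of these data known.

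Rows on chromosomes 1 to 22 and X were kept, and an overlap needed 1 bp. Gene positions came from the RefSeq table of GRCh38.p14, the assembly of hg38, with 58419 annotated genes of which 19821 are protein-coding. A further 679 entries on unplaced or alternate scaffolds were left out. Exon, intron, repeat and exclusion-list positions were not used here. Promoter windows ran from 250 bases before to 50 after a RefSeq start, matched by symbol for 15812 protein-coding genes.

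Named were the 6 overlapping and the 12 non-overlapping gene-end rows of highest fold in each FLAG list, every mouse IgG row at a gene end, the 3 highest mouse IgG rows in neither FLAG list, and members of the 8 gene lists with a row. Others are said to be chosen after their values were seen. Shares have 95% Wilson intervals, differences Newcombe intervals and medians exact binomial intervals, and a count of 0 is given the limit that 3 counts allow. Alternatives changed the overlap rule, the significance minimum, the list length, the IgG lists, the sequences and the location windows. The scripts (Python 3.11.15, numpy 2.4.6, pandas 2.3.3, scipy 1.17.1, matplotlib 3.10.9) were tested on simulated data.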

Additional observations from a re-analysis of the deposited data

Results flagged for a closer look

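Sequences outside chromosomes 1 to 22 and X, which enter no comparison above, held FLAG rows without a mouse IgG row. On Y, unplaced contigs and the mitochondrial genome, 159 of 230 edit_myc_FLAG rows and 145 of 217 myc_FLAG rows overlapped no mouse IgG row, where mouse IgG had 75 rows. Each list had 7 of these rows on the mitochondrial genome. The share that did overlap was 30.9% (25.3 to 37.1%) in edit_myc_FLAG and 33.2% (27.3 to 39.7%) in myc_FLAG. The location of these rows relative to genes was not analysed here.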

How the results depend on the processing

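Of 200 values for 28 results under 11 alternatives, 150 stayed within the interval of the reported value. Gene-end shares were lower, and widths, folds, −log10 q and rabbit IgG shares higher, in overlapping rows under every alternative tried for them. Only 3 of the 230 mouse IgG rows are at a gene end, and a wider row overlaps more easily. The directions for gene-end share and width were therefore largely fixed in advance, and their constancy supports nothing further. The gene-poor difference of myc_FLAG was the exception in direction, at -1.38 points with a −log10 q of at least 5. The overlapping share of edit_myc_FLAG was 8.29% with at least 50% of the row shared, 11.4% with mouse IgG rows widened by 500 bp, 20.7% with a −log10 q of at least 5, 13.8% at equal length, 13.75% with both IgG lists and 12.15% on all sequences. For myc_FLAG it was 16.2% under the shared-row rule, 27.6% with the significance minimum and 25.35% with both IgG lists. The edit_myc_FLAG list held 65.65% of mouse IgG rows at equal length and 89.1% of those of both IgG lists. The gene-end share of non-overlapping edit_myc_FLAG rows was 33.3% with the significance minimum, 45.6% at equal length, 36.1% and 46.6% with windows of 500 and 5000 bp, and 32.0% by promoter windows, a rule chosen after seeing the data. For myc_FLAG it was 23.05% with the significance minimum, 33.5% at 5000 bp and 25.7% by promoter windows. The gene-poor share was 23.1% and 43.9% with the significance minimum and 17.4% and 39.6% beyond 50000 bp, for edit_myc_FLAG and myc_FLAG. The cause of these shifts was not tested. No paired analysis was possible because each list merges its 3 libraries, and for the same reason no replicate could be left out. Mouse IgG rests on 1 library, and unknown depth limits what absence from its list shows.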
